A study of Mus musculus with 4 samples.

Results

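Arterial and venous endothelial cells of mouse brown adipose tissue (BAT) were picked out of 4 single-cell libraries of the stromal vascular fraction (SVF), the cells left when the fat-laden adipocytes are removed from digested tissue. The choice rested on measured transcripts. A cell passed when it held over 250 and under 6000 genes, over 500 and under 30000 unique molecular identifiers (UMIs, each counting 1 captured transcript) and under 15% mitochondrial UMIs. Per 10,000 UMIs it then had to hold at least 15 UMIs of the pan-endothelial genes Cdh5, Cldn5, Pecam1, Egfl7 and Esam, under 20 of the macrophage genes Lyz2, C1qa, C1qb and C1qc, and under 30 of the stromal genes Col1a1, Col1a2, Col3a1, Dcn and Gsn. Last, it had to hold at least 3 raw UMIs of Gja5, Hey1 and Sema3g, the arterial side, plus Vwf, Ackr1 and Selp, the venous side. 287 of 28887 quality-filtered cells met the rule. The side with more UMIs named the cell, which gave 264 arterial and 23 venous cells and no ties. The remaining 2587 cells that passed the endothelial limits held fewer than 3 marker UMIs and are called other endothelial cells here.

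The study set out to describe BAT immune and stromal cells in genetic and diet-induced obesity. The WT library came from C57BL6/J mice aged 10 weeks, and the 2 db/db libraries from B6.BKS(D)-Lepr db/J mice aged 8 and 16 weeks, which carry a mutated leptin receptor. The HFD library came from C57BL6/J mice on a high-fat diet, for 10 weeks by the methods. Its label age is 10 weeks although the methods begin the diet at that age. Each library was 1 pool of cells from 3 mice, so each group is 1 sample, no spread between mice can be given, and no difference between groups or cell classes was tested. Genotype, age and library cannot be told apart between the db/db and WT groups. Between db/db and HFD diet is joined to these. Between WT and HFD diet and library cannot be told apart, and age is joined to them if the diet began as the methods say. The intervals given below are exact 95% intervals that cover counting error only.

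Arteries carry blood at high pressure, and their endothelium is set apart early in development by Notch signaling through receptors, Delta and Jagged ligands and Hey and Hes repressors, with ephrin-B2 as the classical surface mark. Veins and venules keep their identity through the nuclear receptor Nr2f2 and are the vessels where leukocytes leave the blood, by way of selectins and adhesion molecules. The capillaries between them make up most of the endothelium of BAT, where they take up fatty acids for the brown adipocytes with Cd36, Gpihbp1 and Fabp4.

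The 4 libraries were very unequal in these cells. The WT library gave 2 members among 8 endothelial cells, db/db 8 weeks gave 12 among 70, db/db 16 weeks gave 20 among 1415 and HFD gave 253 among 1381, so 88.2% of the members came from HFD. Median UMIs per member were 1478, 2055, 1614 and 5010 in WT, db/db 8 weeks, db/db 16 weeks and HFD, and the median mitochondrial share was 5.74%, 7.89%, 1.81% and 10.5%. A doublet score marked 0, 1, 1 and 8 of the members in the same order. Pairs of libraries shared 16 to 97 cell barcodes, and no barcode was a member in more than 1 library. The methods describe male mice, yet Xist, the transcript of the inactive X chromosome, was held by 3 of 20 members of db/db 16 weeks and by 157 of its 1395 other endothelial cells, against 0 of 253 HFD members.

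The arterial cells of HFD were defined mostly by Sema3g, a secreted semaphorin made by arterial endothelium (chromosome 14, 31217860 to 31230352, plus strand, build GRCm38). It was held by 224 of 232 arterial cells at 608 CPM (UMIs of a gene per 1000000 UMIs of the class), by 3 of 21 venous cells at 39.2 CPM and by 356 of 1128 other endothelial cells at 81.6 CPM. Hey1, a Notch target repressor (chromosome 3, 8663359 to 8667256, minus strand), was held by 131 arterial cells, 1 venous cell and 91 other endothelial cells. Gja5, the gap junction protein connexin 40 of larger arteries (chromosome 3, 96904693 to 97077416, plus strand), was held by 71 arterial cells, 1 venous cell and 12 other endothelial cells. These values chose the cells and are a description. Sema3g with Hey1 was the most frequent combination, in 78 HFD members, followed by Sema3g alone in 54. All 3 arterial markers without a venous marker were found in 18.

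The venous cells were defined by Selp and Vwf. Selp, the leukocyte-rolling receptor P-selectin (chromosome 1, 164115264 to 164150026, plus strand), was held by 16 of 21 HFD venous cells, at 411 CPM, against 3 of 232 arterial cells, at 2.32 CPM. Vwf, the platelet-binding von Willebrand factor (chromosome 6, 125546774 to 125686679, plus strand), was held by 15 of 21 venous cells at 479.8 CPM, but also by 58 arterial cells at 67.2 CPM. Ackr1, a chemokine-binding receptor of venules (chromosome 1, 173331886 to 173333750, minus strand), was held by 6 venous cells and 1 arterial cell. Vwf was thus found on both sides, and 65 of 253 HFD members (25.7%) held markers of both sides, 62 of them on the arterial side. Among 1500 macrophage-gated HFD cells (median 5773 UMIs), 0.467% held Gja5, 0.867% Hey1, 2.07% Sema3g, 4.13% Vwf, 0.533% Ackr1 and 0.6% Selp. In 1512 stromal-gated cells (median 5130 UMIs) the shares were 0.265%, 2.65%, 1.46%, 0.728%, 3.77% and 0.463% in the same order. The shares on the matching side were higher, as the rule fixed.

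**Figure D1:**
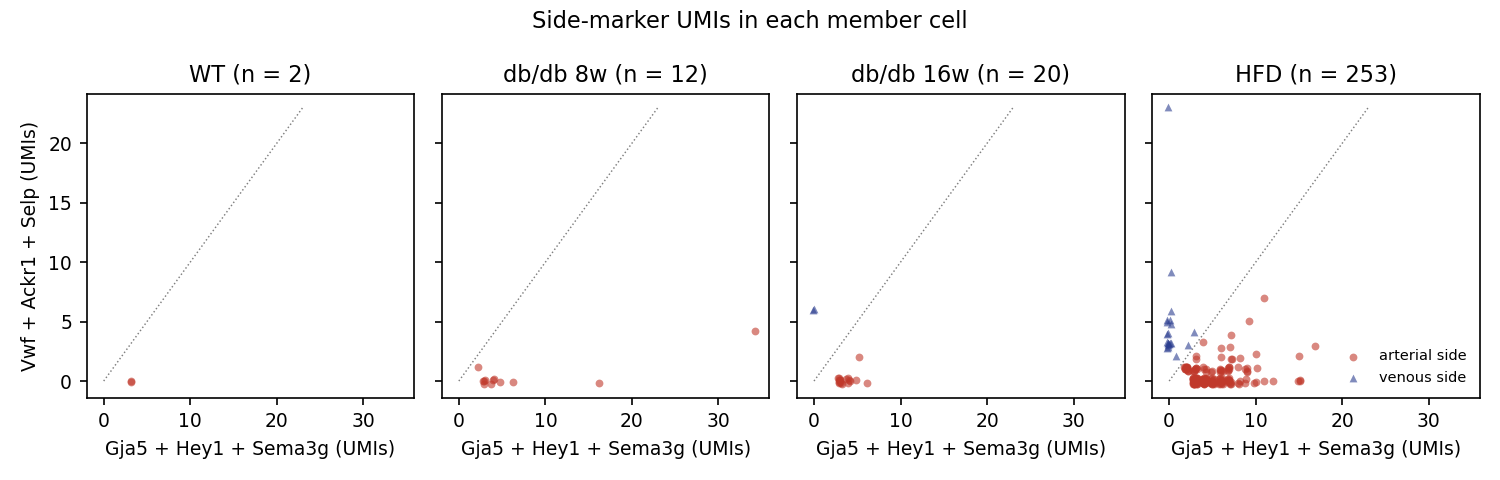
UMIs of the arterial markers Gja5, Hey1 and Sema3g (horizontal axis) against UMIs of the venous markers Vwf, Ackr1 and Selp (vertical axis) in each member cell, one panel per library, with arterial cells as red points, venous cells as blue triangles and a dotted line where both sums are equal. The 253 HFD cells fill both sides of the line, the db/db 16 weeks panel holds 18 arterial and 2 venous cells, and the WT and db/db 8 weeks panels hold arterial cells only.

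The other libraries held the same arterial markers in different proportions. In the 18 arterial cells of db/db 16 weeks, Hey1 was held by 16 cells at 1017 CPM and Sema3g by 14 at 847 CPM. No Gja5 UMI was found there, which allows up to 104.2 CPM by the exact interval. These markers chose the cells in each library, and 3 UMIs make a higher CPM in a shallower cell, so the levels are a description. Over all endothelial cells Hey1 stood at 47.1 CPM in db/db 16 weeks and 44.7 CPM in HFD. Sema3g stood at 116.5 and 182.4 CPM and Gja5 at 2.24 and 20.4 CPM in the same order. In db/db 8 weeks all 12 arterial cells held Sema3g, 4 held Hey1 and 3 held Gja5, at 1573, 164 and 305 CPM. Both WT cells held 3 Sema3g UMIs and no other marker. The venous side was small everywhere outside HFD. Of the endothelial cells, 0 of 8 in WT (up to 36.9% by the exact interval), 0 of 70 in db/db 8 weeks (up to 5.13%), 0.141% in db/db 16 weeks and 1.52% (0.944 to 2.32%) in HFD were venous. Both venous cells of db/db 16 weeks were called on Vwf alone. The arterial side made up 90% (68.3 to 98.8%) of the members of db/db 16 weeks and 91.7% (87.6 to 94.8%) of those of HFD, intervals that overlap.

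As deposited, members made up 18.3% (16.3 to 20.5%) of endothelial cells in HFD and 1.41% (0.865 to 2.18%) in db/db 16 weeks, although endothelial cells themselves were 25.3% and 24.3% of all cells of these libraries. A threshold of 3 raw UMIs is easier to reach in a deeper cell, and the other endothelial cells of HFD held a median of 4232 UMIs against 979 in db/db 16 weeks. With every endothelial cell thinned to 1000 UMIs, which left out 717 of the 1415 cells of db/db 16 weeks, the shares were 2.03% (1.35 to 2.92%) in HFD and 1.29% (0.591 to 2.43%) in db/db 16 weeks, with overlapping intervals. Thinned to 500 UMIs and asked for at least 1 marker UMI, the shares were 13.5% (11.7 to 15.4%) and 8.20% (6.82 to 9.75%). Thinned to 2000 UMIs with at least 3 marker UMIs, they were 5.5% (4.33 to 6.88%) and 1.65% (0.341 to 4.74%). That setting left out 1233 cells of db/db 16 weeks. The order of these libraries stayed, and the gap between them was smaller in the thinned cells than as deposited, to a degree that varied with the setting. Among cells not thinned, HFD stayed above db/db 16 weeks in each depth range from 1000 to under 8000 UMIs. The intervals were apart from 1000 to under 4000 UMIs. At 4000 to under 8000 UMIs they overlapped, at 18.4 to 24.8% in HFD and 0.743 to 20.2% in the 33 cells of db/db 16 weeks. Within HFD the share of members was 10.1% of endothelial cells with at least 1000 and under 2000 UMIs and 13.7% at 2000 to under 4000. It was 21.5% at 4000 to under 8000 and 25.6% of those with at least 8000. Within db/db 16 weeks it was 0.558% of cells with under 1000 UMIs, 1.74% at 1000 to under 2000, 3.38% at 2000 to under 4000 and 6.06% at 4000 to under 8000, with 0 members in the 1 deeper cell.

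**Figure D2:**
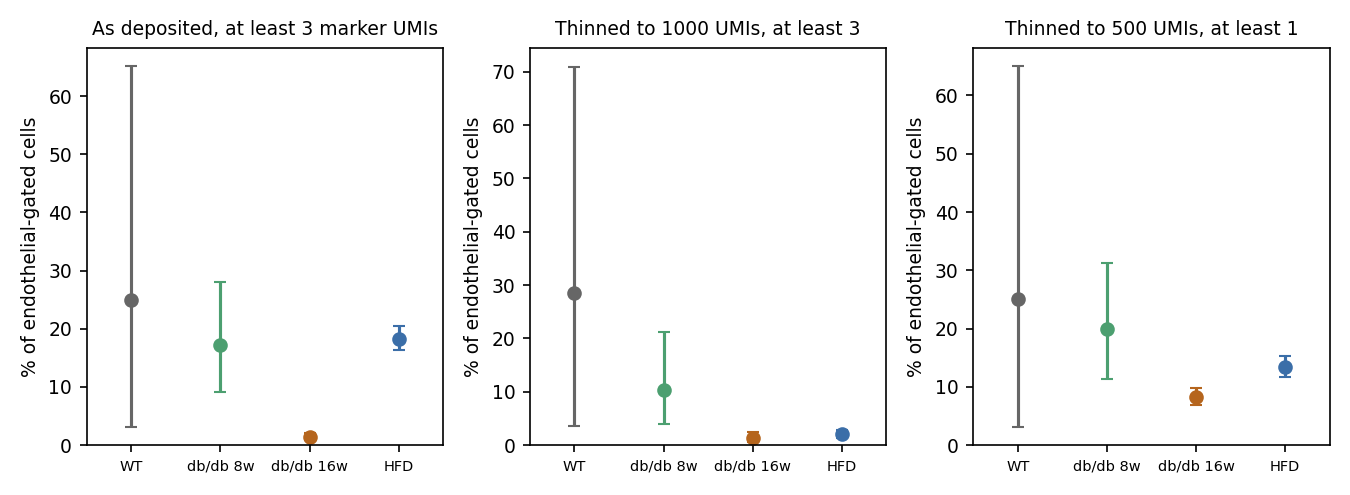
Percent of endothelial-gated cells that met the marker rule in each library (vertical axis), with exact 95% binomial intervals, as deposited with at least 3 marker UMIs, thinned to 1000 UMIs with at least 3, and thinned to 500 UMIs with at least 1. The distance between HFD at 18.3% and db/db 16 weeks at 1.41% in the panel of deposited depth shrinks to 2.03% against 1.29% at 1000 UMIs.

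The WT and db/db 8 weeks shares, 25% (3.19 to 65.1%) and 17.1% (9.18 to 28.0%), rest on 8 and 70 endothelial cells. Over all quality-filtered cells, members were 0.0337% in WT, 0.103% in db/db 8 weeks, 0.343% (0.210 to 0.529%) in db/db 16 weeks and 4.63% (4.09 to 5.22%) in HFD. At the threshold itself, HFD held 149 endothelial cells with 2 marker UMIs (median 4411 UMIs) and 93 with 3 (median 4659 UMIs), and db/db 16 weeks held 29 with 2 and 10 with 3. Many cells just outside the rule thus resembled those just inside it in depth, and some arterial and venous cells will lie among the other endothelial cells. In HFD the arterial cells had a median of 5076 UMIs, the venous cells 3918 and the other endothelial cells 4232.

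Beside the markers that chose them, the arterial cells of HFD differed from the other endothelial cells of the same library in a small set of genes. Fbln5, fibulin-5 of elastic fibres, Col8a1, a collagen VIII chain of the vessel wall, Edn1, the vasoconstrictor endothelin-1, and Ace, the angiotensin-converting enzyme, were 4.16 to 6.18-fold higher in CPM. Lower were Aqp1, a water channel, and Cxcl9, a chemokine for T cells. Few genes differed by this much: among 3475 genes with at least 50 CPM in either class, 1.06% were over 2-fold higher in arterial cells and 0.144% over 2-fold lower, counted after adding 10 CPM to both levels.

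Fbln5 (chromosome 12, 101746565 to 101819055, minus strand) stood at 460 CPM in arterial cells and 76.9 CPM in other endothelial cells, a ratio of 5.99 (5.27 to 6.81). It was held by 162 of 232 arterial cells and by 244 of 1128 others. Col8a1 (chromosome 16, 57624258 to 57754737, minus strand) stood at 263 against 42.5 CPM, a ratio of 6.18 (5.21 to 7.35). The neuronal microtubule regulator Stmn2 (chromosome 3, 8509360 to 8561606, plus strand), at 229 against 40.0 CPM, was 5.73-fold (4.79 to 6.87) higher. St8sia6, a sialyltransferase (chromosome 2, 13651021 to 13794064, minus strand), was held by 91 arterial and 79 other cells and was 6.85-fold (5.26 to 8.95) higher. Eps8l2, an actin-regulating adaptor, was 6.39-fold higher, at 64.9 against 10.2 CPM, and Sorbs2, an adaptor of the actin cytoskeleton, 4.74-fold, at 121 against 25.6 CPM. Edn1 was held by 119 arterial and 162 other cells and was 4.16-fold (3.56 to 4.87) higher, and Ace was 5.03-fold (3.71 to 6.85) higher. None of these 8 transcripts was an all-or-none mark, since each was also found in other endothelial cells. They were not peculiar to the arterial side either: Fbln5 reached 372 CPM and Sorbs2 137 CPM in the 21 venous cells.

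Among the 8 genes named as lower, Aqp1 (chromosome 6, 55336432 to 55348555, plus strand) stood at 296 CPM in arterial cells and 1198 CPM in other endothelial cells, 4.05-fold (3.65 to 4.50) lower, and was held by 82 of 232 against 835 of 1128 cells. Cxcl9 was 3.70-fold lower, at 81.9 against 303 CPM, and Irf8, an interferon-regulated transcription factor, 3.93-fold lower, at 17.0 against 66.7 CPM. The remaining 5 were Odc1 of polyamine synthesis at 3.41-fold, the apelin receptor Aplnr at 2.36-fold, the homeobox factor Meox1 at 2.32-fold, the flavin monooxygenase Fmo2 at 2.08-fold and the actin-binding Tmsb10 at 1.96-fold lower. Aqp1 and Fmo2 were high on the venous side, so that the arterial cells held the least of both among the HFD classes.

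**Figure D3:**
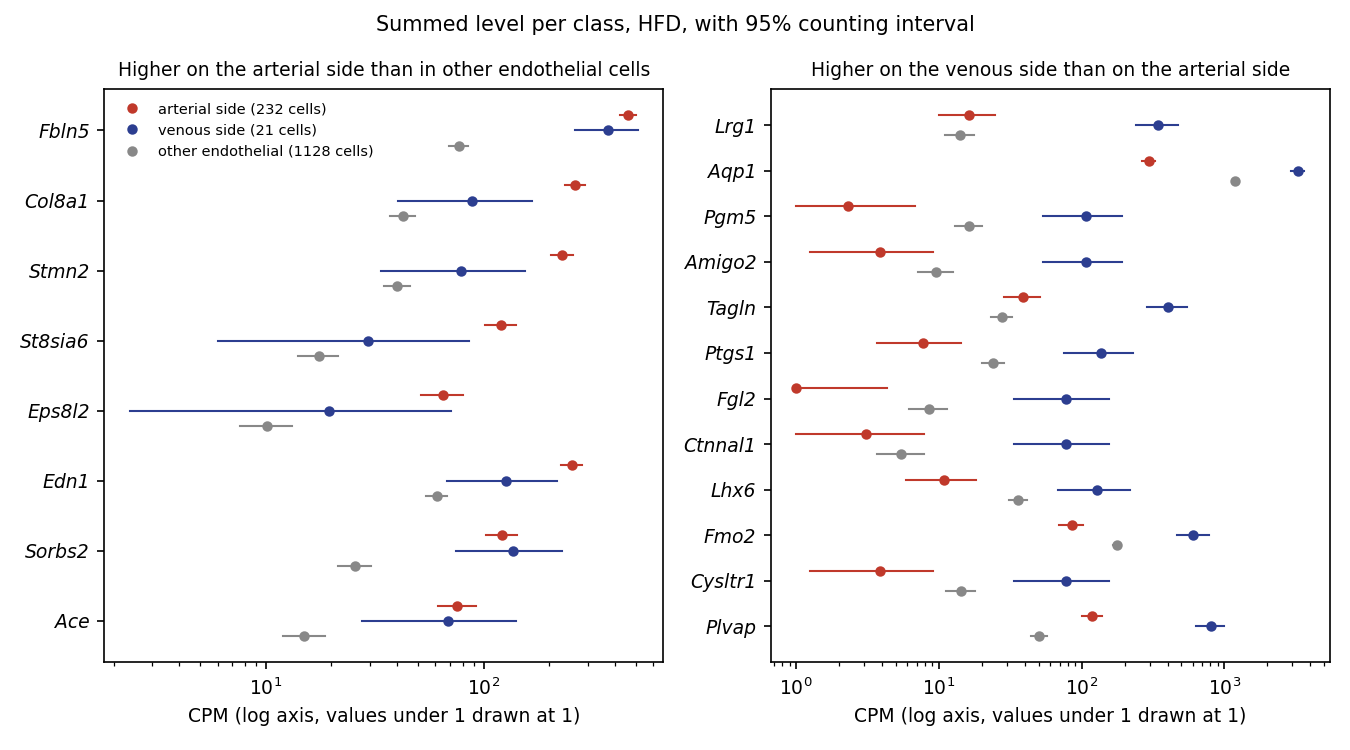
CPM on a log axis, with 95% counting intervals, in the 232 arterial, 21 venous and 1128 other endothelial cells of HFD, for the 8 genes named as higher in arterial than in other cells (left) and the 12 named as higher on the venous than on the arterial side (right), with values under 1 CPM drawn at 1. Fbln5 is near the same level in arterial (460 CPM) and venous cells (372 CPM), and Aqp1 is at 296 CPM in arterial and 3271 CPM in venous cells.

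The same genes can be read in cells that had no part in their choice. Summed over the 8 higher genes, the arterial cells of db/db 8 weeks stood 9.97-fold (7.08 to 14.3) over the other endothelial cells of that library, with 8 of 8 genes higher. In db/db 16 weeks the sum was 6.93-fold (4.72 to 9.90) higher, with 5 of 8 genes higher and 35 UMIs in the 18 arterial cells. Eps8l2 and Sorbs2 were not found there in arterial cells, and Ace was held by 1 cell. The 8 lower genes summed to a ratio of 0.0624 (0.0227 to 0.138) in db/db 8 weeks, with 0 of 8 higher, and 0.346 (0.242 to 0.479) in db/db 16 weeks, with 2 of 8 higher. The HFD library also held 114 arterial cells that met the marker rule at 15 to 25% mitochondrial UMIs and were kept out of the members. There the sum of the 8 higher genes was 6.18-fold (5.67 to 6.73) that of 1761 other endothelial cells, 8 of 8 genes were higher, and 7 of the 8 lower genes were lower, the exception being Odc1 with a ratio of 1.04. WT held 1 UMI of the 8 genes in each class.

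**Figure D4:**
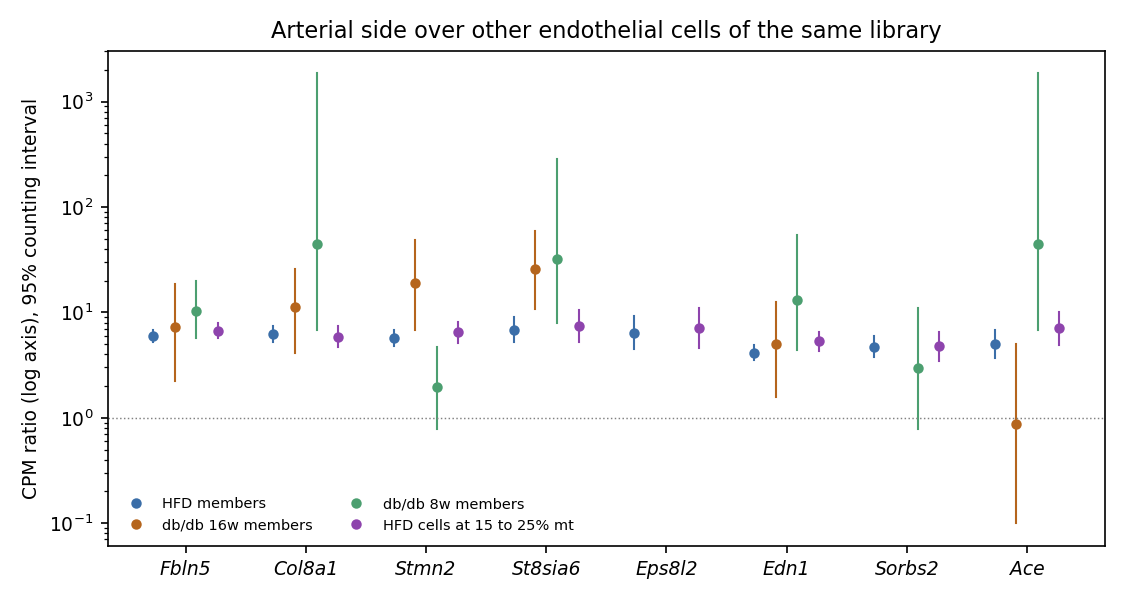
Ratio of CPM in arterial to other endothelial cells of the same library (log axis, 95% counting intervals drawn down to 0.1, dotted line at 1) for the 8 genes named as higher in HFD, in the members of HFD, db/db 16 weeks and db/db 8 weeks and in the HFD cells at 15 to 25% mitochondrial UMIs, with genes at 0 UMIs in a class not drawn. The 15 to 25% cells of HFD sit above 1 for all 8 genes, and the db/db points mostly sit above 1 with wide intervals.

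Single genes in db/db 8 weeks were Fbln5 with 53 UMIs in 12 arterial cells against 15 in 58 others, a ratio of 10.4 (5.77 to 19.9), St8sia6 with 22 against 2 UMIs and Edn1 with 18 against 4. In db/db 16 weeks St8sia6 had 10 UMIs in 18 arterial cells against 19 in 1395 others, a ratio of 25.9 (10.8 to 58.7), Stmn2 had 7 against 18 UMIs and Col8a1 had 7 against 31. These counts are small. In db/db 8 weeks 2 of the 12 cells held 10597 and 9778 UMIs, far over the median of 2055, so they supplied much of every sum, and the other endothelial cells of that library held 5736 CPM of lymphatic markers against 164 CPM in the arterial cells.

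A list of 24 arterial identity genes, without the markers of the rule, was read in the same contrast. In HFD 17 of them reached 50 CPM in arterial or other endothelial cells, 8 were past 2-fold higher and 0 past 2-fold lower, with a median log2 difference of 0.89 against 0.04 over all genes. The 8 were Efnb2, Fbln5, Stmn2, Mecom, Alpl, Ltbp4, Edn1 and Vegfc, so that 3 of them were also counted above. Efnb2, the ephrin-B2 ligand, stood at 368 CPM in arterial, 88.1 in venous and 154 in other endothelial cells, 2.38-fold (2.12 to 2.67) higher in arterial than in other cells. Mecom, a zinc finger transcription factor, stood at 308, 117.5 and 140 CPM. Bmx, a tyrosine kinase known from arterial endothelium, was rarer but sharper, at 31.7 against 1.1 CPM. Cxcl12, the chemokine ligand of Cxcr4, stood at 1522, 686 and 914 CPM and did not reach 2-fold against the other cells, with a ratio of 1.67. Of 15 Notch pathway genes 8 reached 50 CPM and 0 were past 2-fold in either direction, with Dll4 at a ratio of 1.60, Notch1 at 1.41 and Hes1 at 0.67.

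Capillary genes stood at close to the same level in the 3 HFD classes. Of 20 capillary genes 18 reached 50 CPM, 1 was past 2-fold higher (Rbp7, a retinol-binding protein) and 1 past 2-fold lower (Aplnr), with a median of -0.06, and their sums were 56629 CPM in arterial, 53537 CPM in other and 57924 CPM in venous cells. Fabp4, the fatty acid carrier that made up most of that sum, stood at 38774, 37275 and 41825 CPM in arterial, other and venous cells. Cd36, the fatty acid receptor, had a ratio of arterial to other cells of 1.08, Gpihbp1, which anchors lipoprotein lipase, 0.94, and Car4, a carbonic anhydrase of capillaries, 0.77. Rbp7 stood apart at 2237 against 921 CPM, a ratio of 2.43, and was also higher in the arterial cells of db/db 8 weeks at 3.97-fold (3.14 to 5.04) and of db/db 16 weeks at 1.95-fold (1.48 to 2.53).

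The venous cells of HFD had a profile of their own beside Vwf, Selp and Ackr1, read here from 21 cells and 102117 UMIs, so that 1 UMI is 9.79 CPM. Lrg1, a secreted glycoprotein known from venules, Plvap, which forms the diaphragms of fenestrae and caveolae, Aqp1, Fmo2 and the cyclooxygenase Ptgs1 were all over 5-fold higher than in arterial cells. The venous transcription factor Nr2f2 was 4.08-fold (2.59 to 6.27) higher. Among 3703 genes with at least 50 CPM in either side, 5.21% were past 2-fold higher in venous cells and 8.07% past 2-fold higher in arterial cells, shares that include the noise of a small class.

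Lrg1 (chromosome 17, 56119678 to 56122001, minus strand) stood at 343 CPM in venous, 16.2 in arterial and 14.1 in other endothelial cells, 21.1-fold (12 to 38.2) higher on the venous than on the arterial side, and was held by 12 of 21 against 18 of 232 cells. Plvap (chromosome 8, 71497765 to 71511752, minus strand) stood at 803, 118 and 50.4 CPM and was held by 16 of 21 venous cells. Aqp1 stood at 3271 CPM in venous cells and was held by 18 of 21. Of the 3 HFD classes only the venous one was high in Lrg1, whereas Aqp1 was common to venous and other endothelial cells and missing from most arterial cells. Fmo2 was held by 17 of 21 venous cells, at 607 against 85.0 CPM on the arterial side. Tagln, an actin-binding protein best known from smooth muscle, stood at 401.5 against 38.6 CPM and was held by 10 of 21 venous cells. Ptgs1, which makes prostanoids, stood at 137 against 7.73 CPM. The other 6 genes named by rank, the adhesion proteins Pgm5 and Amigo2, Fgl2, Ctnnal1, the homeobox factor Lhx6 and the leukotriene receptor Cysltr1, rested on few UMIs, such as 8 for Fgl2 and 11 for Amigo2 in the venous cells. In 21 venous and 114 arterial cells of HFD at 15 to 25% mitochondrial UMIs, 12 of these 12 genes were higher on the venous side, by 10.1-fold (8.38 to 12.3) in sum. Lhx6 rested on 1 venous UMI there, Amigo2 and Ctnnal1 on 3 each and Pgm5 on 4.

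The 12 genes named as higher on the arterial side all stood at 0 or 1 UMI in the venous cells, among them Cox8b, a cytochrome oxidase subunit, Acsl1 of fatty acid activation, Mki67, a mark of dividing cells, and Arap2. Arap2 had 83 arterial UMIs and 0 venous ones, at least 1.74-fold higher by the exact interval. In the cells at 15 to 25% mitochondrial UMIs only 8 of these 12 genes were higher on the arterial side, with a summed ratio of 1.13 (0.836 to 1.55), an interval that holds 1. The venous profile was thus found again in these held-out cells and this arterial list was not. The held-out cells came from the same library and pool of mice and were sided by the same markers, so they give no check across mice.

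Against the other endothelial cells, where 5.69% of 3658 genes were past 2-fold higher in venous cells and 6.81% past 2-fold lower, Lrg1 was 24.3-fold (15.8 to 36.8), Plvap 15.9-fold (12.3 to 20.5) and Tagln 14.6-fold (10.1 to 20.8) higher. Ehd4, an endocytic recycling protein, was 7.88-fold (5.92 to 10.3) higher at 597 against 75.8 CPM and was held by 19 of 21 venous cells, and the serine protease Prss23 was 10.9-fold (7.20 to 16.0) higher. Mural markers summed to 1205 CPM in venous, 1129 in arterial and 962 in other endothelial cells, and 1 venous cell held 32 of the 123 mural UMIs of that class. Without cells holding over 50 mural UMIs per 10,000, Tagln was 17.5-fold higher in venous than in other endothelial cells. The 8 genes named as lower in venous cells, among them Cox8b, Fabp3, Hadh and the brown fat uncoupling protein Ucp1, stood at 0 to 2 venous UMIs. They are genes of brown adipocytes and dividing cells in the main, and the adipocyte list summed to 68.6 CPM in venous, 215.5 in arterial and 366 CPM in other endothelial cells. In the HFD cells at 15 to 25% mitochondrial UMIs, 8 of 8 genes named as higher were higher in venous cells, by 14.9-fold in sum, and 8 of 8 named as lower were lower, with a summed ratio of 0.450 (0.315 to 0.623). The part of transcripts from outside the cell was not tested.

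Of 18 venous identity genes 10 reached 50 CPM on either side, and 0 were past 2-fold higher in arterial and 7 in venous cells, with a median log2 difference of arterial to venous of -1.02 against 0.02 over all genes. Nr2f2 stood at 284 CPM in venous, 69.5 in arterial and 132 in other endothelial cells, and Nrp2, a neuropilin of veins and lymphatics, at 607, 167 and 313 CPM. Both genes were in the order venous, other, arterial. Vcam1, the leukocyte adhesion molecule, was 3.43-fold and Il6, the cytokine interleukin-6, 15.2-fold higher in venous than arterial cells, Il6 on 6 venous UMIs. These with Cxcl9 were the 3 of 11 measured leukocyte-recruitment genes past 2-fold, all on the venous side, beside 5.21% of all genes. For the arterial identity list the same contrast gave 7 of 18 measured genes past 2-fold higher in arterial cells and 0 in venous cells, with a median of 0.68. Efnb2 was 4.17-fold (2.18 to 9.18) and Cxcl12 2.22-fold higher on the arterial side.

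Anticoagulant genes past 2-fold stood on the venous side. Of 6 measured haemostasis genes 4 were past 2-fold higher in venous cells, beside 5.21% of all genes. Thbd, thrombomodulin, stood at 264 against 111 CPM. Procr, the protein C receptor, was 4.00-fold and Tfpi, the tissue factor pathway inhibitor, 2.92-fold higher. The other was Ptgs1, a cyclooxygenase already named by rank above. Plat, the tissue plasminogen activator, was the 1 past 2-fold on the arterial side and stood at 111 CPM there against 41.5 CPM in other endothelial cells. Of 11 vasomotor genes only Calcrl, the calcitonin receptor-like receptor, differed past 2-fold between the sides. Over all genes 5.21% were past 2-fold higher in venous and 8.07% in arterial cells. Calcrl stood at 176 CPM in venous, 36.3 in arterial and 73.3 in other endothelial cells. Edn1 and Ace were the 2 of 11 past 2-fold higher in arterial than in other endothelial cells, beside 1.06% of all genes. There the list summed to a ratio of 1.21 (1.19 to 1.24). Neither Edn1 nor Ace was past 2-fold between the sides. Antigen presentation genes were lower in venous than in other endothelial cells for 3 of 10 measured genes, Cd74, H2-Aa and H2-Ab1. Cd74 was 2.44-fold lower, in a contrast where 6.81% of all genes were past 2-fold lower. The flow-responsive factors Klf2 and Klf4 were 1.47 and 1.81-fold higher in arterial than venous cells, below the 2-fold limit.

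Elastic-fibre and matrix genes were high on both sides. Of 13 genes, 7 were measured between arterial and other cells. Of these 7, Fbln2, Fbln5 and Ltbp4 were past 2-fold higher, beside 1.06% of all genes, and the list had a summed ratio of 2.34 (2.22 to 2.46). Between venous and other cells 6 of 8 measured genes were past 2-fold higher, beside 5.69% of all genes, with a summed ratio of 3.66 (3.24 to 4.12). Eln, elastin (chromosome 5, 134702593 to 134747323, minus strand), stood at 294 CPM in venous, 79.6 in arterial and 42.5 in other endothelial cells and was 3.69-fold higher on the venous than the arterial side. Fbn1, the microfibril protein fibrillin-1, was 3.10-fold and Bgn, the proteoglycan biglycan, 4.46-fold higher on the venous side. With all arterial cells pooled, the elastic list was thus not confined to the arterial side in this library. The venous values come from 21 cells, with 1 cell above 50 mural UMIs per 10,000 kept in. The arterial cells are divided by Gja5 below.

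The arterial cells were not uniform. Of the 232 in HFD, 71 held Gja5 and 161 did not, at median depths of 4861 and 5262 UMIs, so the division did not follow depth in the direction of more counts. Gja5 and Vwf were markers of the rule, while the list genes below were not. The Gja5-holding cells held more of the elastic-fibre list, at 3293 CPM against 1284 CPM without Gja5 and 781 CPM in other endothelial cells, a ratio of 2.56 (2.36 to 2.78). Of 9 measured genes of that list 8 were past 2-fold higher and 0 lower, with a median of 1.31 against 0.02 over all 3639 genes, of which 1.92% were past 2-fold higher and 0.522% past 2-fold lower.

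Mgp, the matrix Gla protein that guards arteries against calcification, stood at 389 CPM with Gja5 and 57 CPM without, a ratio of 6.80 (4.93 to 9.50). Eln stood at 192 against 38 CPM, a ratio of 5.03 (3.3 to 7.76). Lox, which crosslinks elastin and collagen, was 3.60-fold, Fbn1 2.94-fold, Fbln2 2.76-fold and Fbln5 2.42-fold higher. Fbln5 was still high without Gja5, at 332 CPM against 76.9 CPM in other endothelial cells, whereas Eln without Gja5 was near the 42.5 CPM of the other cells. Stmn2 was 4.04-fold (3.18 to 5.14), Ace 5.08-fold (3.3 to 7.95), Col8a1 3.0-fold, St8sia6 3.03-fold and the secreted chaperone clusterin, Clu, 31.7-fold (11.6 to 121) higher with Gja5. Lower with Gja5 were Car4, at 114 against 334 CPM, Aplnr, at 17 against 67 CPM, and Cxcl12, at 992 against 1718 CPM. Col8a1, Stmn2, St8sia6 and Ace, named above as higher in arterial than in other endothelial cells, thus stood higher still in the cells with Gja5.

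**Figure D5:**
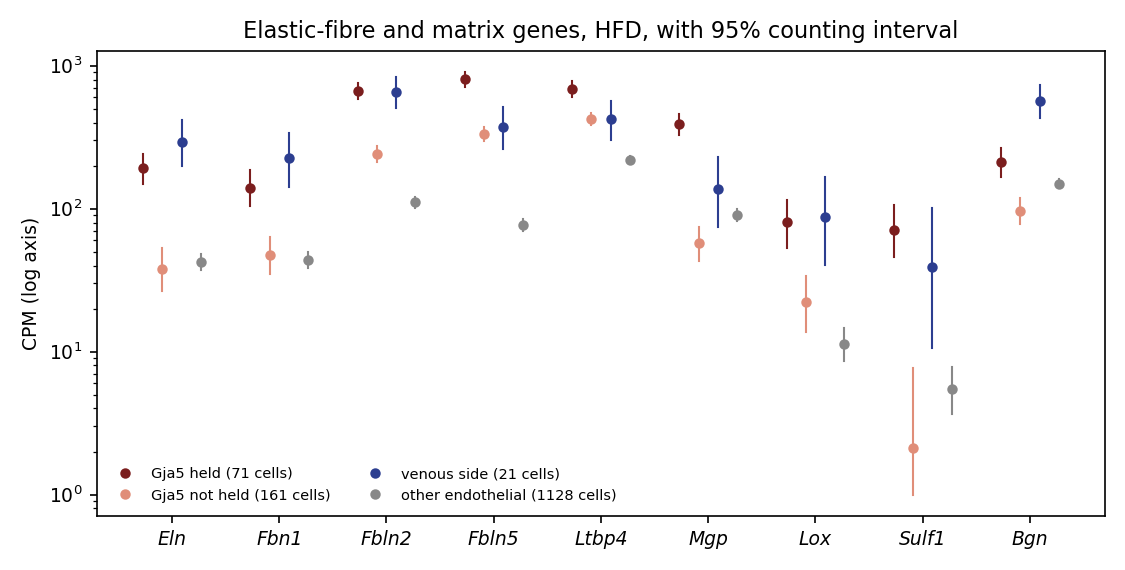
CPM on a log axis, with 95% counting intervals, of 9 genes of the elastic-fibre list in the HFD arterial cells with Gja5 (71), arterial cells without it (161), venous cells (21) and other endothelial cells (1128). Mgp is at 389 CPM with and 57 CPM without Gja5, and Eln at 192 and 38 CPM.

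Mural markers moved with this division, at 1586 CPM in Gja5-holding and 960 CPM in the other arterial cells, with 9 of 71 and 3 of 161 cells above 50 mural UMIs per 10,000. The smooth muscle genes Tagln, Acta2 and Myh11 were 6.94, 4.20 and 3.98-fold higher with Gja5. Without cells above that level, a comparison added after the data were seen, Tagln and Acta2 stood at ratios of 1.29 and 0.86. Both are among the mural markers that set the removal, so their fall was fixed by it. In the cells left, 8 of 9 elastic genes remained past 2-fold higher and their summed ratio was 2.65 (2.43 to 2.89). Cells with fewer mural UMIs were kept, and the part of mural transcripts in the elastic genes was not tested. Vwf was held by 35 of 71 Gja5-holding cells (49.3%, 37.2 to 61.4%) and by 23 of 161 others (14.3%, 9.28 to 20.7%). Both genes are markers of the rule, so these shares are a description. Arterial identity genes were past 2-fold higher with Gja5 for 9 of 21 measured genes, with a summed ratio of 1.30 (1.24 to 1.37), among them Gja4, another arterial connexin, at 74 against 24 CPM and the Notch ligand Jag1 at 129 against 54 CPM.

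Arterial cells of db/db 16 weeks and HFD were set side by side as 18 against 232 cells. These libraries also differ in genotype, diet, label age, depth, mitochondrial share and the share of Xist-holding cells, which cannot be told apart. Median depth of the arterial cells was 1554 against 5076 UMIs and their median mitochondrial share 1.81% against 10.5%. The rule also chose them by different markers: Hey1 was held by 16 of 18 against 131 of 232 cells and Gja5 by 0 against 71. Among single list genes, the db/db cells held more Timp4, a metalloproteinase inhibitor, Gpihbp1, Sox17, Dll4 and Hes1, and less Cxcl12 and Fbln5. The arterial and Notch lists as a whole were not higher: more arterial identity genes were past 2-fold lower than higher. As many Notch genes were past 2-fold lower as higher, with the counts given below. The libraries differed throughout, though: of 4153 genes 14.5% were past 2-fold higher and 28.2% past 2-fold lower in db/db 16 weeks, with a median of -0.22 over all genes. Red blood cell transcripts took part in this, since 3 of 18 arterial cells of db/db 16 weeks held over 5% haemoglobin UMIs, up to 67.6%, and haemoglobin was 24.0% of the arterial UMIs, against 0 of 232 such cells in HFD. Without such cells the median over all genes was 0.04.

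Among the 8 genes ranked as higher in db/db 16 weeks, Hba-a1, Hba-a2, Hbb-bs, Hbb-bt and Alas2 are haemoglobin or erythroid genes, and Alas2 stood at 0 once the 3 cells were left out. Arhgap27os2, another of the 8, rested on 3 UMIs. The mitochondrial transcript mt-Nd2 was 9.57-fold lower in arterial cells and 21.5-fold lower in all other cells. Hexim1, an inhibitor of transcription elongation, had 0 UMIs in the arterial cells of db/db 16 weeks against 614 in HFD. That is at least 4.54-fold lower by the exact interval, and Hexim1 was 7.51-fold lower in other endothelial cells. Both transcripts thus separated the libraries outside the arterial cells too.

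Capillary and Notch genes of the lists were read beside the same ratio in the other endothelial cells. Timp4 was 7.51-fold (5.34 to 10.4) higher in arterial cells of db/db 16 weeks and 7.43-fold in the other endothelial cells. Gpihbp1 was 2.93-fold (2.44 to 3.48) higher, at 3898 against 1332 CPM, and 3.32-fold in the others. Both therefore differed by similar ratios in and outside the arterial class. Sox17, an arterial transcription factor, was 2.84-fold (1.84 to 4.20) higher in arterial cells, at 763 against 269 CPM, and 1.54-fold in other endothelial cells. Without haemoglobin-holding cells its arterial ratio was 4.27 (2.72 to 6.40). The ratio of 1.54 keeps such cells, so it is not matched to the ratio of 4.27. Hes1 was 3.12-fold (1.97 to 4.74) higher in arterial and 2.15-fold in other endothelial cells, and Dll4 3.99-fold (2.0 to 7.25) and 3.61-fold. Summed over the Notch list, arterial cells of db/db 16 weeks stood at a ratio of 1.51 (1.16 to 1.94), or 2.03 without haemoglobin-holding cells, and other endothelial cells at 1.33 and 1.48. Of 9 measured Notch genes, 2 were past 2-fold higher and 2 past 2-fold lower in arterial cells, beside 14.5% and 28.2% of all genes.

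Cxcl12 was 6.74-fold (3.41 to 15.6) lower in arterial cells of db/db 16 weeks, at 226 against 1522 CPM, and 2.58-fold lower in other endothelial cells. Without the haemoglobin-holding cells it was 4.15-fold lower in arterial cells, which is not matched to the 2.58-fold, where such cells were kept. Fbln5 was 3.26-fold lower in arterial and 3.95-fold lower in other endothelial cells. Igfbp3, a binding protein of insulin-like growth factors, was 5.13-fold (2.11 to 10.8) and Eln 3.90-fold (1.89 to 7.28) higher in arterial cells, and 2.59 and 2.95-fold in the others. The arterial identity list summed to a ratio of 0.621 (0.515 to 0.742), and to 0.900 without the haemoglobin-holding cells. Of its 20 measured genes 4 were past 2-fold higher and 9 past 2-fold lower, beside 14.5% and 28.2% of all genes. Differences between the arterial and other endothelial ratios were not tested.

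Within db/db 16 weeks, where 13.4% of 3715 genes were past 2-fold higher and 14.7% past 2-fold lower in arterial than in other endothelial cells, the arterial identity list had 10 of 17 measured genes past 2-fold higher and 0 lower, with a median of 0.94 against 0.02 over all genes and a summed ratio of 1.84 (1.53 to 2.21). Sox17 was 2.53-fold (1.65 to 3.72) and Notch1 2.48-fold (1.30 to 4.31) higher, beside ratios of 1.37 and 1.41 in HFD, and the difference between the libraries was not tested. Igfbp3 had 8 UMIs in 18 arterial cells against 68 in 1395 others. The capillary list summed to a ratio of 0.741, or 0.832 without haemoglobin-holding cells, against 1.06 in HFD.

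In db/db 8 weeks 18.8% of 4013 genes were past 2-fold higher and 15.7% past 2-fold lower between 12 arterial and 58 other endothelial cells. The arterial identity list had 11 of 20 measured genes past 2-fold higher and 1 lower, with a summed ratio of 2.32 (1.98 to 2.70), and the elastic list 3 of 6 past 2-fold higher, with a summed ratio of 4.87. Eln was held by 5 of 12 arterial cells, with 38 UMIs against 10 in the other class, Ace had 15 UMIs against 1, and Efnb2 was 3.33-fold higher. Mural markers stood at 2747 CPM in arterial cells, with 114 of their 117 UMIs in 1 of the 12 cells. Without it they stood at 91.4 CPM, the arterial list at 2.27 and the elastic list at 4.64. WT gave 2 arterial cells with 2957 UMIs in all, too few for any level beside the 6 Sema3g UMIs that chose them.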

How the data were processed

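Single cells of the BAT SVF were captured with the 10x Chromium 3′ kit. The authors deposited raw UMI counts per gene and cell (32285 genes, build mm10, Cell Ranger 7.1.0 per the submitters' processing notes), which were used without further normalization. QC-passing cells held 45025949, 53420105, 26558173 and 32606428 UMIs in WT, db/db 8 weeks, db/db 16 weeks and HFD. Cells met the limits given in the results. The study's subsampling and clustering were not repeated. Members and gene lists were chosen with earlier results of these data known.

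Counts were summed per library and class and expressed as CPM. Since a group is a single library, nothing was tested. Ratios of CPM carry exact 95% conditional binomial intervals and shares exact Clopper-Pearson intervals, and a count of 0 was read by its exact bound. For ranking, for the 2-fold counts and for list medians, 10 CPM was added to both levels. Named genes had at least 50 CPM in either class, were outside the 6 side markers and 14 gate genes, and ranked in the first 12 (arterial against venous) or 8 (side against other endothelial cells) in each direction by log2 difference, or in the first 8 (db/db 16 weeks against HFD) by the interval bound nearest 0. List members and the 6 side markers were also named. A few genes that this rule names are not reported here. Ratios within a library needed 20 cells per class, or 10 in a comparison added later. Likely doublets, taken as the highest Scrublet scores (Scanpy 1.11.5), were kept in the main values. Thinning drew UMIs without replacement. Alternatives were other marker minimums, thinning, other endothelial and mitochondrial limits, doublet removal, no Vwf, other CPM offsets and filters, and, added after the data were seen, removal of cells with haemoglobin, mural or lymphatic markers, the HFD cells at 15 to 25% mitochondrial UMIs, classes of at least 10 cells, the Gja5 division and 500 UMIs. Gene positions are those of GENCODE vM21 (GRCm38). Python 3.11.15, numpy 2.4.6, scipy 1.17.1 and pandas 2.3.3 were used. The code was tested on simulated data.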

Additional observations from a re-analysis of the deposited data

Results flagged for a closer look

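HFD held 135 cells that met every criterion of the arterial and venous rule except the mitochondrial limit, at 15 to 25% mitochondrial UMIs. They are a signal outside the member cells. Of these, 114 were arterial and 21 venous, with a median of 2934 UMIs, and WT held 2 such cells and both db/db libraries 0. Whether they differ from the members in cell state or in cell quality was not tested.

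WT held 103 quality-filtered cells with at least 3 Ackr1 UMIs outside the endothelial limits, against 24 in db/db 8 weeks, 0 in db/db 16 weeks and 1 in HFD. All 103 were over the stromal limit, 0 held Vwf or Selp, and their median depth was 13949 UMIs. Ackr1 was held by 1065 of 4319 stromal-gated WT cells (24.7%), at 43.1 CPM, and stood at 21.4, 2.0 and 8.33 CPM in the stromal-gated cells of db/db 8 weeks, db/db 16 weeks and HFD. In these libraries Ackr1 alone was therefore not a venous mark.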

How the results depend on the processing

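No paired analysis was possible because each group has 1 library. For the same reason no library could be left out. As a percent of quality-filtered cells, members under a minimum of 2 marker UMIs were 0.840% in db/db 16 weeks and 7.36% in HFD, and under a minimum of 5 they were 0% in WT (which then gave no arterial share), 0.0343%, 0.0857% and 2.0% in db/db 8 weeks, db/db 16 weeks and HFD. Thinned to 1000 UMIs, db/db 16 weeks stood at 0.191% and HFD at 0.514%, and thinned to 500 UMIs with at least 1 marker UMI at 1.99% and 3.41%. HFD stood at 3.85% with a mitochondrial limit of 25%, 4.01% with an endothelial limit of 30 per 10,000 and 5.23% without predicted doublets. Over endothelial cells the shares were 25%, 17.1%, 1.41% and 18.3%. HFD stayed above db/db 16 weeks under each of these settings. The arterial share of db/db 16 weeks was 60% at a minimum of 5 marker UMIs and 100% with an endothelial limit of 30 or without Vwf, and that of HFD was 87.2% at 500 UMIs. The arterial list median between arterial and venous cells was 0.86 with 1 CPM added and 0.32 with 50 CPM added. The venous list median was -1.77 and -0.61 with 1 and 50 CPM added, -1.64 over genes of at least 20 CPM, -1.49 with strict sides and -1.68 as a ratio of sums. The capillary list in members against other endothelial cells had a median of -0.33 in db/db 16 weeks, and -0.27 with 50 CPM added, over genes of at least 20 CPM or with strict sides, -0.22 thinned, -0.45 as a ratio of sums and -0.13 without haemoglobin-holding cells. In HFD it was -0.040, with 0.035 under strict sides, -0.089 thinned, 0.083 as a ratio of sums and -0.023 without mural-marker cells, so its sign was not settled. The causes of these shifts were not tested. Genes past 2-fold between arterial cells of db/db 16 weeks and HFD numbered 1773, and 1762 to 2016 under the alternatives. The 12 and 18 arterial cells of the db/db libraries and the 21 venous cells of HFD limit every value drawn from them.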

Other observations

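Genes induced by interferon, by stress and in the cell cycle were also read in the arterial and venous cells of HFD. Of 14 measured interferon genes 3, the antiviral gene Rsad2, Ifit2 and the transcription factor Irf7, were past 2-fold higher in arterial than venous cells and 0 lower, beside 8.07% of all genes past 2-fold higher, while between arterial and other endothelial cells 0 of 13 were past 2-fold in either direction. Of 14 immediate-early and heat shock genes, the inducible Hsp70 genes Hspa1a and Hspa1b were past 2-fold higher in arterial than venous cells, with Hspa1a at a ratio of 2.55, and 2 of 14 is near the share over all genes. Of 6 measured cell cycle genes 0 were past 2-fold between arterial and other endothelial cells, with Mki67 at a ratio of 0.621 and Top2a at 0.564. In venous cells 3, Mki67, Top2a and Cenpf, were past 2-fold lower than in other endothelial cells, beside 6.81% of all genes. Platelet markers summed to 26.3 CPM in arterial, 58.8 in venous and 38.0 in other endothelial cells.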
